A study of Mus musculus with 4 samples.

Results

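The mitochondrial carriers of the SLC25 family were followed in 32D-EpoR cells, a mouse myeloid progenitor line that depends on interleukin-3 and carries an erythropoietin receptor, with and without erythropoietin (Epo), the hormone of red cell formation. The members were all gene probes of the array whose gene name in the files is Slc25a followed by a number, except Slc25a37 and Slc25a38. Of these, the probes kept were well above background, by the scanner software's own test, on both arrays of at least 1 group. The name matched 47 probes of 40 genes, and 37 probes of 31 genes passed, out of 17555 genes that passed in all. The line was grown in RPMI with fetal bovine serum and WEHI medium, each at 10%, and was washed into RPMI with the serum alone for the experiments. The control group received no Epo, and the Epo group received 10 U/ml, so both groups share the loss of WEHI medium. Each group was measured on 2 single-colour Agilent arrays, from 2 independent experiments on cells of different passages. How long Epo was present, and whether the line is a single clone, are not given in the sources used here.

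SLC25 proteins sit mostly in the inner mitochondrial membrane, where each moves small molecules such as nucleotides, amino acids, cofactors or phosphate between the cytosol and the matrix. They are built of repeated pairs of membrane helices, and each repeat bears a signature in which a proline is followed by an acidic and then a basic residue. In developing red cells, matrix steps of heme synthesis depend on such transport, and in any growing cell the carriers tie mitochondrial DNA, one-carbon and amino acid metabolism to the cytosol.

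Of the kept probes, 1 of Slc25a26 carries that signature in its own letters and 1 of Slc25a33 carries a form of it with tryptophan in place of the acidic residue. Both belong to genes that rose with Epo. They are shown 5′ to 3′ in the sense direction. Capitals mark the 18 bases whose codons, in a frame without stops, read proline, any, aspartate or glutamate, any, any, lysine or arginine in Slc25a26, and the same with tryptophan at the third place in Slc25a33.
Slc25a26 probe: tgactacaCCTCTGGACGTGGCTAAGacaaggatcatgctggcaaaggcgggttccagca
Slc25a33 probe: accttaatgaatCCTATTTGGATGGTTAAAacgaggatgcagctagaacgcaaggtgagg
The files place the first at chr6:94548392-94549185 on the plus strand and the second at chr4:149123432-149126565 on the minus strand of the mouse build mm9. These 60-base probes span 794 and 3134 bases of the genome, so each bridges sequence that is not contiguous there. Among all 23735 kept probes, 0.935% hold the signature or its tryptophan form in a stop-free frame. Each of these genes has a second, brighter probe, and that one stands for the gene below. Whether the other members' probes lie in coding or untranslated sequence was not analysed here.

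All levels below are log2 intensities after each array was set to its 75th percentile, and a change is the level with Epo minus the level without. A gene was called when its adjusted p in limma, a linear model fitted over all genes, was under 0.05 after Benjamini-Hochberg adjustment over the 17555 genes. Between 41.3% and 47.9% of all gene probes were well above background on the 4 arrays. The arrays with Epo were brighter before scaling. Over all genes the change had a median of -0.062 as scaled and 0.68 unscaled. Of 10 myeloid progenitor markers listed to check the cell type, 9 were tested, with Kit not above the filter. The log2 of the summed scaled intensities of all 10 was 17.18 and 17.24 without Epo and 16.95 and 17.10 with Epo. Each such sum, here and below, takes the brightest probe of every listed marker, tested or not. Bright markers therefore weigh most. Erythroid markers (4 of 7 tested, with the heme enzyme gene Alas2 and the beta globin Hbb-bt among those not tested) summed to 13.50 and 13.70 without Epo and 12.99 and 13.02 with Epo. The T and B cell list (1 of 5 tested) summed to 9.10 and 8.67 against 7.82 and 7.69, and the stromal list (1 of 4 tested) to 8.05 and 8.13 against 5.75 and 6.11. Most genes of both lists did not pass the filter. Without a filter on dim probes the median scaled change over all genes was -0.44. The part of that general shift in these sums was not tested. Macrophage markers (3 of 4 tested) summed to 11.84 and 11.80 against 12.12 and 12.22. The part of these shifts in the carriers' results was not tested. In RNA from whole cultures, fewer cells of a kind and less RNA per cell cannot be told apart.

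With Epo, 8 of the 31 carriers rose and 2 fell, beside 13.1% of all genes that rose and 14.3% that fell. Together 10 of 31 were called, against 27.4% of all genes. Slc25a22 and Slc25a15 passed the filter only through the Epo group, where they are higher. Of the 29 carriers well above background on all 4 arrays 6 rose and 2 fell, beside 14.3% and 16.9% of the 16183 genes that met this stricter filter. The rises were Slc25a33, Slc25a32, Slc25a22, Slc25a43, Slc25a25, Slc25a15, Slc25a42 and Slc25a26, and the falls were Slc25a45 and Slc25a11. The median change of the 31 was 0.042, against -0.062 over all genes, and most members lay near that value. The members' median was -0.026 under quantile normalization and -0.084 with the percentile over detected probes, against -0.037 and -0.19 over all genes. Without a filter on dim probes it was -0.024 over 40 carriers, against -0.44 over all genes. Of the 29 carriers well above background on all 4 arrays, Slc25a33 and Slc25a32 rose at least 4-fold. The share over all 17555 genes tested, which include genes dim in 1 group, was 1.06%. Without scaling 19 carriers were called higher and 0 lower, beside 46.9% and 2.07% of all genes. The levels of the groups did not overlap for 12 carriers that lay higher with Epo and 4 that lay lower, beside 30.4% and 38.4% of all genes. Of the 21 carriers that were not called, 17 changed by less than 0.25 in either direction. Of the 31 carriers, 26 had the same sign in both replicate numbers, taken as the 2 experiments, beside 15114 of all 17555 genes. With that number as a block in the fit, 10 carriers rose and 3 fell, beside 19.9% and 23.2% of all genes.

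**Figure D1:**
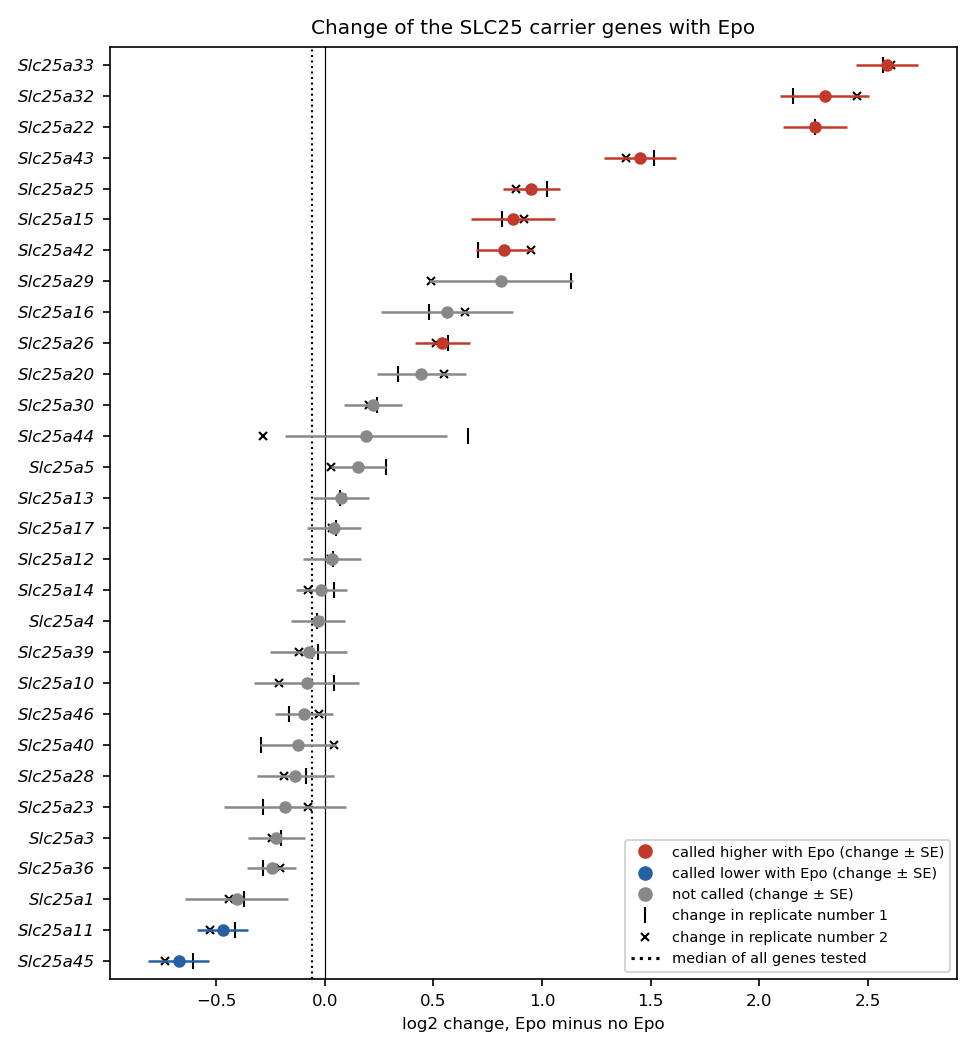
Log2 change with Epo for the SLC25 carriers named in the text, ordered by size, with its standard error from limma (dots and bars) and the change within each replicate number (ticks and crosses). Slc25a33, Slc25a32 and Slc25a22 lie apart at 2.59, 2.30 and 2.26. Slc25a22 and Slc25a15 were not well above background on either array without Epo, which limits the sizes drawn for them. Most other genes lie around the dotted median of all genes at -0.062, and Slc25a45 lies lowest at -0.67.

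Among carriers of nucleotides, folate and cofactors, 3 of 6 rose and 0 fell. For this and each small group of carriers below, the shares over all genes were 13.1% higher and 14.3% lower. Slc25a33, which imports pyrimidine nucleotides into the matrix, rose most of all members. Its level was 9.33 and 9.11 without Epo and 11.90 and 11.72 with Epo. The groups stand far apart relative to the spread within them, and both experiments gave nearly the same change (2.57 and 2.61). The rise was 2.59 ± 0.14 (SE, n = 2 per group), which is 6.02-fold (limma adjusted p 0.00397). It ranked 82 among all 17555 changes from the highest down. The probe printed above gave 2.73 ± 0.16 (SE). Slc25a36, the other pyrimidine nucleotide carrier of the family, went from 9.67 and 9.65 to 9.39 and 9.44. Its change of -0.25 ± 0.11 (SE) did not pass (adjusted p 0.166), with a 95% interval of -0.54 to 0.048. The difference between the changes of this pair was not tested.

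Slc25a32, which carries folate and flavin cofactor into the matrix, was the next highest. Its levels of 8.99 and 8.50 without Epo and 11.14 and 10.95 with Epo did not overlap, although the arrays without Epo differed from each other by more than those with it. The rise was 2.30 ± 0.20 (SE, n = 2 per group), which is 4.93-fold (limma adjusted p 0.00622). Slc25a26 brings in S-adenosylmethionine, the methyl donor. It rose from 8.50 and 8.39 to 9.06 and 8.90, a change of 0.54 ± 0.13 (SE) with an adjusted p of 0.0404. The printed probe gave 0.42 ± 0.12 (SE) with an adjusted p of 0.0628 over all probes, and the call of the gene was lost without any 1 of the 4 arrays (adjusted p up to 0.214) and with the percentile taken over detected probes (0.0610). Slc25a16, linked to coenzyme A, lay at 8.75 and 8.06 without Epo and at 9.23 and 8.71 with Epo, so its groups overlap. Its change of 0.56 ± 0.30 (SE) was not called (adjusted p 0.228), but passed with the replicate number as a block (adjusted p 0.0264).

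Among carriers of amino acids and carnitine, 2 of 7 were called higher and 0 lower. Both calls belong to genes that were not well above background without Epo, and 0 of the other 5 were called. Slc25a22, a glutamate carrier, passed the background test on both arrays with Epo and on 0 of the 2 without it. Its levels were 4.01 and 4.22 without Epo and 6.27 and 6.48 with Epo, so the lower group is only bounded. Its signal was at least 3.38-fold higher with Epo, where the dim side is set no lower than the dimmest probe that was well above background on the same array. The fitted change was 2.26 ± 0.15 (SE, n = 2 per group) with a limma adjusted p of 0.00436. With the normexp background, which raises dim values, that change was 0.61 and still called. The other glutamate carrier, Slc25a18, did not pass the filter. Slc25a15, the ornithine carrier, likewise passed the background test only with Epo. Without Epo it was not well above background, at 3.73 and 3.34, and lay at 4.54 and 4.26 with Epo. It was called higher (0.87 ± 0.19, SE, limma adjusted p 0.0358), but the bound gives no fold, and with the normexp background its change was -0.26, which was not called. Its call was also lost without replicate 2 of the group without Epo or without either array with Epo (adjusted p up to 0.119).

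The remaining carriers of this kind were not called. Slc25a29, a carrier of basic amino acids, lay at 5.71 and 6.62 without Epo and at 6.84 and 7.11 with Epo. The groups do not overlap, but the wide gap between the arrays without Epo leaves its change at 0.81 ± 0.33 (SE, limma adjusted p 0.138). Without replicate 2 of that group it was called, at 1.26. Slc25a20, which exchanges acylcarnitine for carnitine, changed by 0.44 ± 0.21 (SE, adjusted p 0.175, or 0.0438 with the replicate number as a block). The aspartate and glutamate exchangers of the malate-aspartate shuttle, Slc25a12 and Slc25a13, changed by 0.032 and 0.074, and lay below 0 under quantile normalization (-0.074 and -0.015). Their 95% intervals ran from -0.32 to 0.38 and from -0.27 to 0.41. For Slc25a44, linked to branched-chain amino acids, the arrays with Epo disagreed, at 7.14 and 6.07, around 6.48 and 6.35 without Epo. A dimmer probe of Slc25a44 gave 0.53 ± 0.12 (SE) with an adjusted p of 0.0365 over all probes, whereas the brighter one gave 0.19.

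**Figure D2:**
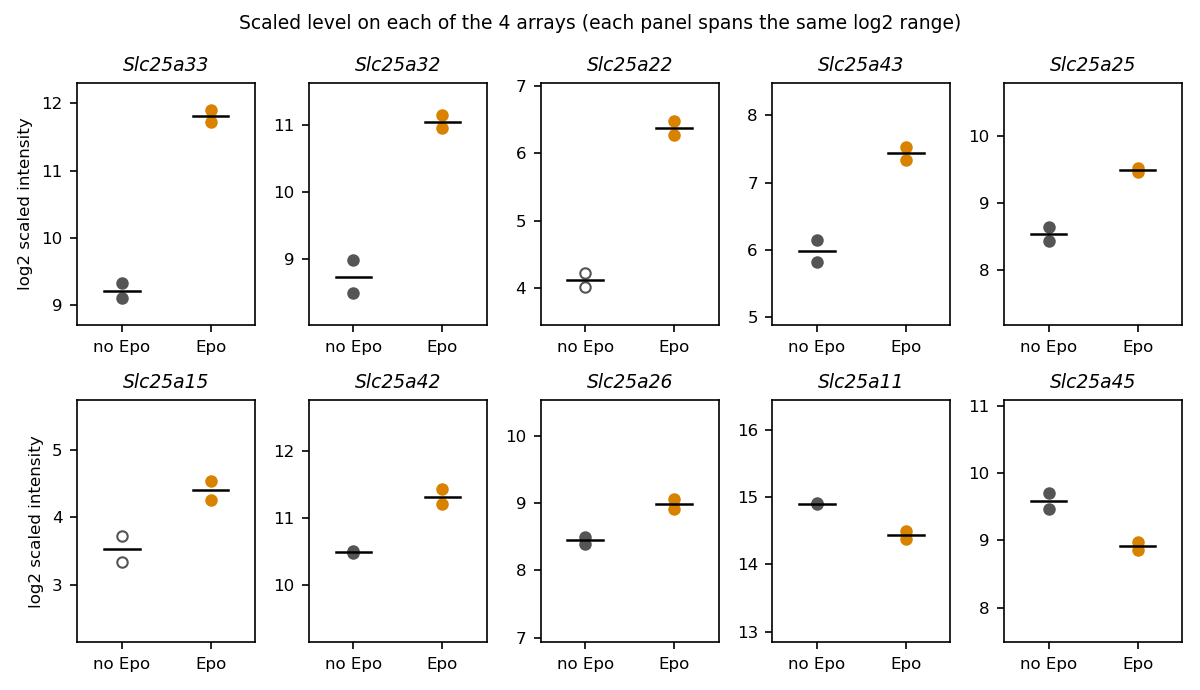
Log2 scaled intensity on each array (points) with the group mean (bars) for the 10 called carriers, without and with Epo. Every panel spans the same log2 range, and open points mark a group in which neither array was well above background. The gap is widest for Slc25a33 (9.22 against 11.81 on average) and narrow for Slc25a11 (14.90 against 14.43).

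Among carriers of adenine nucleotides and phosphate, 2 of 7 were called higher and 0 lower. Slc25a25, a calcium-regulated carrier that exchanges ATP-Mg for phosphate, rose from 8.44 and 8.65 to 9.46 and 9.53. The change was 0.95 ± 0.13 (SE), which is 1.93-fold (limma adjusted p 0.0126), and a second probe gave 1.07 ± 0.19 (SE). Slc25a42, which brings coenzyme A into the matrix in exchange for adenine nucleotides, rose from 10.51 and 10.48 to 11.21 and 11.43. Its change was 0.83 ± 0.13 (SE), or 1.77-fold, with an adjusted p of 0.0165, which became 0.0762 without replicate 2 of the Epo group. The ADP/ATP carriers, which export the ATP made by respiration, were not called. Slc25a4 lay at 14.13 and 14.25 without Epo and at 14.10 and 14.22 with Epo, a change of -0.032 with an interval of -0.36 to 0.29. Slc25a5 changed by 0.15 with an interval of -0.18 to 0.49. Its value is uncertain because the probe may also bind RNA of a copy, Slc25a5-ps, which was not tested. The phosphate carrier Slc25a3 changed by -0.22 ± 0.13 (SE) by its brighter probe and by 0.046 ± 0.15 (SE) by the other. Slc25a17, a peroxisomal carrier, changed by 0.042, and Slc25a23, another ATP-Mg carrier, by -0.18 ± 0.28 (SE).

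Of the carriers of citrate and dicarboxylates 1 of 3 was called lower and 0 higher. All 3 lay below 0 as scaled and above 0 without scaling. Slc25a11, which exchanges 2-oxoglutarate for malate, fell from 14.91 and 14.90 to 14.50 and 14.37. The fall was small, at -0.47 ± 0.12 (SE, limma adjusted p 0.0465), and it was lost without any 1 of the 4 arrays (adjusted p up to 0.241) and with the normexp background (0.0820). The citrate carrier Slc25a1 changed by -0.41 ± 0.24 (SE, adjusted p 0.259, or 0.0334 with the replicate number as a block), with overlapping groups. Slc25a10, the dicarboxylate carrier, changed by -0.085, with an interval of -0.72 to 0.55. Without scaling Slc25a11 lay at 0.28, so its fall is relative to the other genes of the array.

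The tested carriers of iron and glutathione did not pass. Slc25a28, the second mitoferrin and an iron importer of the inner membrane, went from 11.64 and 11.98 to 11.56 and 11.80, a change of -0.14 ± 0.18 (SE, limma adjusted p 0.593). Slc25a39, a glutathione importer, and its relative Slc25a40 changed by -0.075 and -0.12. Their intervals ran from -0.54 to 0.39 and from -0.59 to 0.34, so changes of up to about that size could not be told from 0 with 2 arrays per group. The uncoupling-like members Slc25a14 and Slc25a30 changed by -0.017 and 0.22 and were not called.

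Among members whose substrate is less settled, Slc25a43 and Slc25a45 moved in opposite directions. Slc25a43 rose from 5.83 and 6.15 to 7.34 and 7.54, a change of 1.45 ± 0.17 (SE), which is 2.73-fold (limma adjusted p 0.00898). With the normexp background the rise was 0.82 and remained called. Slc25a45 fell from 9.46 and 9.71 to 8.86 and 8.97, by 0.67 on the log2 scale with an SE of 0.14 and an adjusted p of 0.0311. That call was lost without replicate 2 of the group without Epo or without either array with Epo (adjusted p up to 0.135), and the change was 0.073 without scaling. Slc25a46, which sits in the outer membrane and acts in mitochondrial dynamics, changed by -0.097 ± 0.14 (SE), and its dimmer probe by 0.16.

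The other 9 genes of the name rule did not pass the filter and were not tested: Slc25a2, Slc25a18, Slc25a21, Slc25a24, Slc25a27, Slc25a31, Slc25a34, Slc25a35 and Slc25a41. Just outside the filter, Slc25a35 read 17.2 and 41.1 intensity units with Epo and was well above background on the second of these arrays alone. Slc25a2, an ornithine carrier, read 8.18 and 5.61 without Epo and 6.12 and 17.6 with Epo, also above background on the last of these alone. Just inside, Slc25a15 read 9.66 and 8.28 without Epo and 26.4 and 28.4 with Epo. Slc25a31, the ADP/ATP carrier of the testis, read 4.26 to 4.75 on 3 arrays and 3.72 on the other.

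Further carriers of the family stand under other names in the files and were read from a list of such names. Of 7 listed genes on the array 6 were tested, and 1 rose and 0 fell, beside 13.1% and 14.3% of all genes. Slc25a47, Slc25a48 and Slc25a54 are also on the array under other names, but were outside the list and were not tested. Slc25a53, listed as Mcart6 and named through RefSeq, rose from 5.56 and 5.15 to 8.31 and 8.24. Its change of 2.92 ± 0.18 (SE, limma adjusted p 0.00398) was above that of any of the 31 members. The order turned with the normexp background, where it was 1.66 against 2.53 for Slc25a33 and 2.23 for Slc25a32. Slc25a51, listed as Mcart1, a carrier of NAD, changed by 0.072. The uncoupling proteins Ucp2 and Ucp3 changed by -0.35 and -0.38, and the outer membrane proteins Mtch1 and Mtch2 by -0.25 and 0.033. None of these 5 was called.

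The promoters of the members were read from RefSeq (build GRCm38.p6), from 250 bases before to 50 after the annotated start, and 26 of the 31 genes matched. The E-box CACGTG, the core site of MYC-MAX and related factors, which reads the same on both strands, was in 6 of the 26 genes and in 8.09% of all 27025 genes. It was in 2 of the 6 matched genes that rose (Slc25a33 and Slc25a15), in 4 of the 18 not called (Slc25a1, Slc25a13, Slc25a14 and Slc25a36) and in 0 of the 2 that fell. Slc25a15 passed the filter only through the Epo group, where it is higher, and was not called with the normexp background. The split by call is therefore only a description. The STAT-type motif TTCNNNGAA was in 1 of the 26 (Slc25a36) and in 9.55% of all genes. TGATGNAA, a core of the sites of ATF4 with C/EBP, was in 0 of the 26 and in 4.51% of all genes. Both strands were searched, and a match is a description of letters and not of binding. The stretches before the start are shown for the pyrimidine nucleotide pair and the ornithine carrier, with the E-box in capitals, each on the minus strand.
Slc25a33 promoter, chr4:149774268-149774357: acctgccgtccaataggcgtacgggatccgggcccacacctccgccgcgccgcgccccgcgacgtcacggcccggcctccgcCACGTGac
Slc25a15 promoter, chr8:22398307-22398396: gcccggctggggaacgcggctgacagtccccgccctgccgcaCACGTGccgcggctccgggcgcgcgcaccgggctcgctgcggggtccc
Slc25a36 promoter, chr9:97111181-97111270: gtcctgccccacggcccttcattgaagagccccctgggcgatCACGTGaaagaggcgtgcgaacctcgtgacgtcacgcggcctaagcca
The E-box begins 8 bases before the annotated start in Slc25a33, 77 in Slc25a15 and 187 in Slc25a36. The gene that rose most and its uncalled partner thus both hold the motif, at different distances.

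Genes of pathways that meet the carriers were read from lists written from textbook knowledge. Carrier proteins reach the inner membrane through receptors and pores of the outer membrane, small chaperones of the intermembrane space and the TIM22 insertase. Of 13 genes of this route 6 rose and 0 fell, with a median of 0.63. Beside this and each list below stand the 13.1% of all genes that rose and the 14.3% that fell. The chaperone genes Timm10 and Timm9 rose by 2.21 ± 0.12 and 2.04 ± 0.11 (SE), each with a limma adjusted p of 0.00397, while the insertase gene Timm22 itself changed by 0.23 and was not called. Among 18 other channels and transporters of mitochondrial membranes, 1 rose and 0 fell, with a median of -0.017. That rise was Vdac2, a pore of the outer membrane, at 0.68 ± 0.14 (SE, adjusted p 0.0308), and its call was lost without any 1 of the 4 arrays (adjusted p up to 0.141).

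Of 7 mitochondrial one-carbon and folate enzymes, which use the folate that Slc25a32 carries, 3 rose and 0 fell. Mthfd2l and Gcsh, of formate and glycine metabolism, rose by 0.79 ± 0.14 and 0.73 ± 0.11 (SE, limma adjusted p 0.0231 and 0.0152). As the mean of its kept probes Gcsh rose by 1.41 (adjusted p 0.00508). Mthfd2l was called in 1 and Gcsh in 2 of the 4 fits that leave out an array. Of 8 enzymes of ornithine, arginine and proline, 4 rose and 0 fell, with Odc1, which makes polyamines from ornithine, at 1.49 ± 0.12 (SE, adjusted p 0.00532). Of 12 genes of mitochondrial nucleotide and DNA supply 3 rose and 0 fell, with the DNA helicase gene Twnk at 1.05 ± 0.18 and the adenylate kinase gene Ak4 at 0.85 ± 0.15 (SE, adjusted p 0.0210 and 0.0214). Twnk lost its call without replicate 2 of the Epo group (adjusted p 0.0625) and was 0.46 with the normexp background. Ak4 lost it without replicate 2 of the group without Epo or replicate 1 of the Epo group (up to 0.0878).

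Cofactor synthesis gave 2 rises and 1 fall among 13 genes. Pank3, a kinase at the entry to coenzyme A synthesis, rose by 1.32 ± 0.25 and Nampt, of NAD salvage, by 0.83 ± 0.16, while Coasy, at the end of coenzyme A synthesis, fell by 0.51 with an SE of 0.12 (limma adjusted p 0.0241, 0.0248 and 0.0398). Pank3 was 0.80 with the normexp background and lost its call without replicate 2 of the Epo group (adjusted p 0.0522). Nampt lost it without replicate 2 of the group without Epo (0.0679) or replicate 1 of the Epo group. Coasy lost it without any 1 array (up to 0.196) or with the normexp background (0.0651), and lay at 0.23 without scaling. Of 6 glutamate and glutamine enzymes 1 rose, the alanine transaminase gene Gpt2, at 1.03 ± 0.22 (SE, adjusted p 0.0311), and its call was lost without replicate 2 of the group without Epo or replicate 1 of the Epo group (adjusted p up to 0.0913). Among 4 genes of the carnitine shuttle, whose acylcarnitines Slc25a20 exchanges, 1 rose and 2 fell. Cpt1a, which makes acylcarnitine at the outer membrane, fell by 1.58 with an SE of 0.12 (adjusted p 0.00506), and Cpt2, which reverses that step in the matrix, fell by 0.75 with an SE of 0.12 (adjusted p 0.0174). Cpt2 kept its call without replicate 1 of the group without Epo and lost it without any other array (up to 0.0938), without scaling, and as the mean of its probes (-0.50, adjusted p 0.0730). Cpt1b, the muscle form of Cpt1a, rose by 0.90 ± 0.19 (SE, adjusted p 0.0302). Its call held without replicate 2 of the Epo group and was lost without any other array (up to 0.0940), and was 0.29 with the normexp background and 0.58 as the mean of its probes, neither called. Of 8 enzymes of the malate-aspartate shuttle and citrate use, limma called 0, and 0 had an unadjusted p under 0.05. The smallest p values among them belonged to Me2 and Acly, with changes of -0.23 and -0.17.

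**Figure D3:**
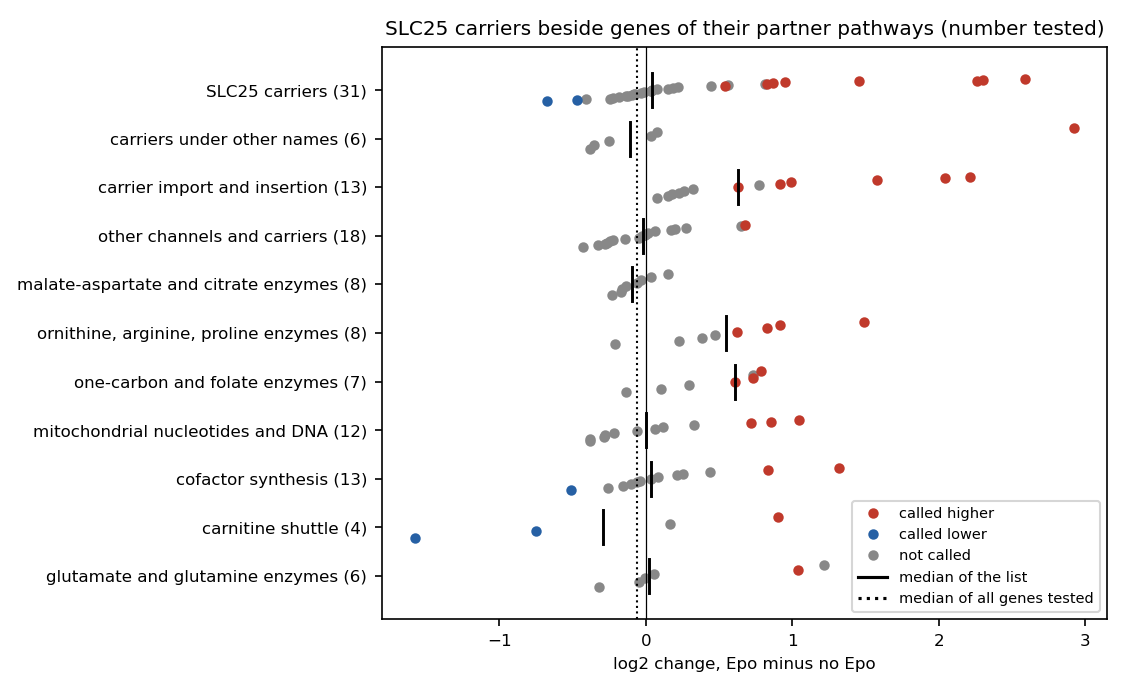
Log2 change with Epo for every tested gene of the SLC25 family and of 10 lists of partner genes, with the number tested in brackets, list medians as bars and the median of all genes as a dotted line. Genes of carrier import range from 0.073 to 2.21, those of the malate-aspartate shuttle within -0.23 to 0.15, and the carriers from -0.67 to 2.59.

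The calls differed in how firmly they stood. Slc25a33, Slc25a32, Slc25a43 and Slc25a25 kept theirs in every alternative but 1, and lost it when dim probes were not removed. So did Slc25a22 in the alternatives run for it, 12 in place of 13. It passed the filter only through the Epo group and drops out when all 4 arrays must be well above background. Its kept call is therefore no measure of firmness. With any 1 of the 4 arrays left out, Slc25a33 changed by 2.48 to 2.70 and Slc25a32 by 2.06 to 2.55. Slc25a43 changed by 1.29 to 1.61 and Slc25a25 by 0.85 to 1.05. The counts of carriers called higher with an array left out, here and further below, include Slc25a22. Without replicate 2 of the Epo group the number of carriers called higher was 5 in place of 8. Of the falls, 1 was called when replicate 1 of the no-Epo group was left out, and 0 when any other array was.

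**Figure D4:**
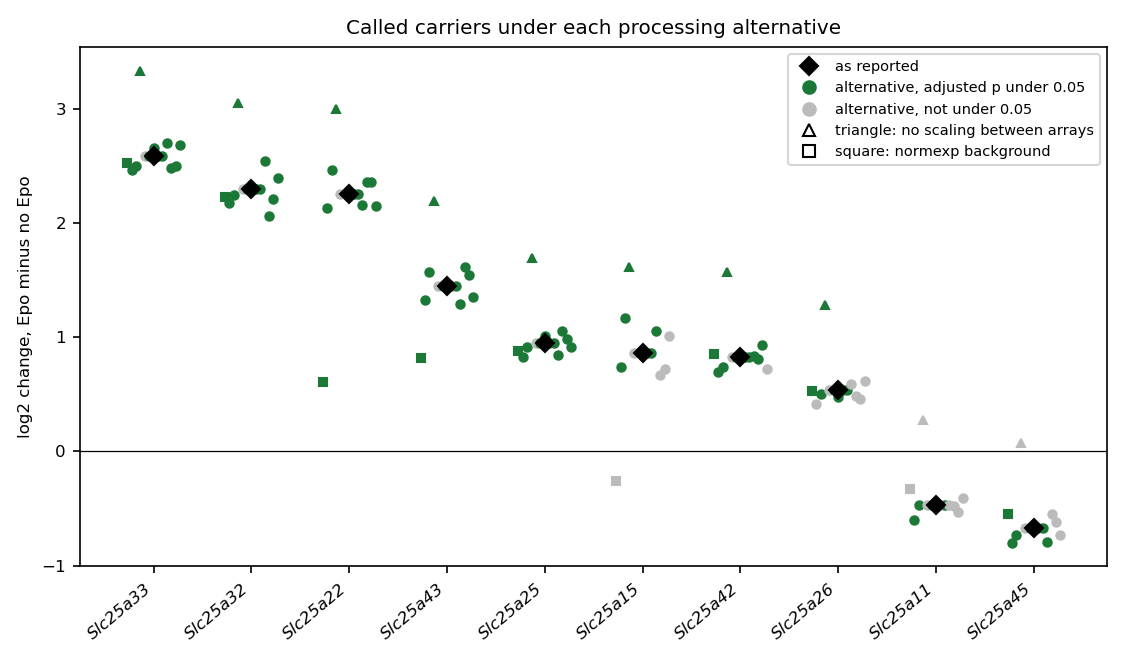
Log2 change of the 10 called carriers as reported (diamonds) and under each of the processing alternatives (points), green where the limma adjusted p was under 0.05 and grey where it was not. The leading carriers stay well above 0 throughout, Slc25a22 drops from 2.26 to 0.61 with the normexp background, Slc25a15 drops to -0.26 there, and Slc25a11 and Slc25a45 lie above 0 without scaling.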

How the data were processed

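Total RNA, 200 ng per sample, was labelled with Cy3 per the labels' protocols and hybridised to 4 arrays on 1 slide. The deposited processed intensity was corrected for background and spatial trend by Feature Extraction, per the file headers, with no scaling between arrays. In the submitters' processing notes limma is listed, with no role. Here, the log2 of that intensity minus each array's 75th percentile over 59305 non-control spots was taken and the mean percentile added back. Outlier spots were dropped, which removed 9 of 55681 probes, and spots of 1 probe were averaged. A gene was its brightest kept probe. The groups were compared by lmFit and eBayes of limma 3.58.1, under R 4.3.3, with 2 residual degrees of freedom and two-sided tests. Only this fit was run on simulated data, which were log2 levels with independent errors. The background correction, scaling, filter and choice of probe were not tested in that way. The number of arrays limits the precision: the median SE was 0.14. Names outside the family were updated through RefSeq (26413 probes by accession, 3859 by symbol, 735 by synonym), and positions are on mm9.

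The design text speaks of independent experiments, so equal replicate numbers were read as pairs. Deviations from the group mean correlated at 0.386, across genes, between samples of equal number. The reported fit leaves the pairing out. The alternatives covered the background correction, the scaling, the filter, the choice of probe, the replicate block and each array left out. Members and lists were chosen with earlier results of these data known. All tested members were to be named, and from each list up to 2 rises and 2 falls, or the 2 smallest p values. Some of these genes are not reported here by name, though they are in the counts. Further carriers, Timm22 and the second probes were named after their values were seen.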

Additional observations from a re-analysis of the deposited data

How the results depend on the processing

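Against 8 carriers called higher and 2 lower of the 31 tested, 19 and 0 were called without scaling and 0 and 0 without a filter on dim probes, where limma called 0 of all genes although 10 carriers and 7148 of 36310 genes had an unadjusted p under 0.05. The falls numbered 1 with the normexp background and 1 when each probe was tested alone. With 1 array left out, where the lone sample is assumed to vary like the other group, 5 to 7 carriers were called higher and 0 to 1 lower, and the median change ran from 0.058 to 0.12. The median of 0.042 was 0.082 with the normexp background, -0.084 with the percentile over detected probes and -0.026 under quantile normalization. It was 0.79 without scaling, -0.024 without the filter (over 40 carriers) and 0.15 over single probes. The medians over all genes were, in the same order, -0.074, -0.19, -0.037, 0.68, -0.44 and -0.040. Over all genes 4804 were called (2302 higher, 2502 lower), against 8595 without scaling (8231 and 364) and 7565 with the replicate number as a block (3497 and 4068). With 1 array left out 2273 to 3963 passed (1098 to 2017 higher, 1175 to 1946 lower). With the percentile over detected probes the split was 1876 against 3657. With the replicate block 10 carriers were called higher and 3 lower, and the block changed no carrier's call other than those of Slc25a16, Slc25a20 and Slc25a1. Without scaling, which raises all genes together, all 13 carriers below 0 turned to above 0. Among them Slc25a11, Slc25a45 and Slc25a14 lay at 0.28, 0.073 and 0.73, and the enzyme gene Coasy lay at 0.23. Slc25a15 turned to -0.26 with the normexp background. The cause was not tested. The signals of Slc25a15 and Slc25a22 without Epo were not well above background, which limits their sizes.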
